A study of Homo sapiens with 6 samples.

Results

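The regions described here are stretches of acetylated histone H4 (H4ac) that lie on exons, in protein-coding or non-coding transcripts, or on 5' UTRs, away from the nearest transcription start site. They were chosen from the peaks of the shControl library as those annotated exon, non-coding or 5' UTR and lying more than 1000 bp from the nearest start, which gave 498 of 36034 control peaks (1.38%). Of these, 334 were exons of protein-coding transcripts, 150 were exons of non-coding transcripts and 14 were 5' UTRs. A further 2012 control peaks with these annotations lay within 1000 bp of a start and were not included.

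The cells were H1975, an established line from a non-small cell lung cancer that carries mutant EGFR, with tetracycline-inducible hairpins. One control hairpin (shControl) was compared with 2 hairpins against TIP60 (gene KAT5), shTIP60-B and shTIP60-C, and all cells, the controls included, received 0.5 ug/ml doxycycline for 2 days. An H4ac library and an input library were made for each hairpin, 6 libraries in all, and the input reads were not used here. Each group is 1 library, so replicate spread is unknown, and a p speaks for the pair of libraries it was computed from and not for their conditions. Whether each hairpin line was 1 clone or a pool is not given in the sources used here, and the loss of TIP60 protein or RNA was not analysed here.

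Acetylation of the histone H4 tail loosens the contact of nucleosomes with DNA and is read by bromodomain proteins. TIP60 is the catalytic subunit of the NuA4 complex, which acetylates histones H4 and H2A. The mark is concentrated at promoters and enhancers. Acetylation over an exon away from its own gene's promoter can belong to an enhancer that overlaps coding sequence, to an alternative promoter that the annotation does not list, or to the body of a strongly transcribed gene, and an annotation alone cannot tell these apart.

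The shControl library had 3638815 reads in all control peaks, shTIP60-B had 2842710 and shTIP60-C had 6746689, so shTIP60-C was the deepest and gave the most precise ratios. The exonic regions took 1.00% of the shControl reads, 1.03% of the shTIP60-B reads and 1.00% of the shTIP60-C reads. Among promoters of lung epithelial genes, 7 of 10 had a control peak, with up to 282 control reads, and those of KRT7, MUC1 and SFTPB had none. Promoters of blood cell genes had 0 of 5, endothelial genes 0 of 4, and fibroblast genes 1 of 6, which was COL1A1 with 57 reads. Ratios below are M, the log2 of knockdown over control after the authors' rescaling, and wherever M or p of a region is given it was read from the authors' deposited tables. The rescaling removes any change shared by all regions, so a region that fell or rose did so relative to the others. The values in parentheses after M are exact Clopper-Pearson counting intervals at 95% confidence and cover counting error only. All coordinates are on hg19 as deposited.

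A base sequence is shown for the interferon-induced gene IFITM3, because the interferon response is among the gene lists below. The IFITM3 region was 1 of 6 exonic regions wide enough to reach the nearest start site. These 6 held 208 to 447 control reads. The stretch lies 53 to 25 bases before the start of IFITM3 on the minus strand of chromosome 11, in the RefSeq promoter table of GRCh38.p14. Capitals mark 2 matches to the spaced repeat of the interferon-stimulated response element, which is GAAA, any pair of bases, and GAAA again. This motif was searched on both strands from 250 bases before to 50 bases after each start, and 1255 of 35116 promoters (3.57%) held it.
IFITM3: gGAAAAGGAAActgttgaGAAACCGAAAc

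The regions were smaller and weaker than promoter peaks. Their median was 36.5 control reads (quartiles 22.25 and 77), against 50 over all control peaks and 88 within 1000 bp of a start. Their median width was 787.5 bp against 924 bp over all control peaks, and their median density was 47.3 control reads per kb against 52.6. Other peaks off promoters were similar, with medians of 38 reads and 807 bp for introns and 42 reads and 850 bp for intergenic peaks. The 5' UTR regions stood above the exons, with a median of 148.5 reads and 1268 bp. The typical region therefore rested on few reads, and a fall from the median of 36.5 reads has a wide counting interval.

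Most regions lay inside the body of a gene. The exon was the first of its transcript in 42 regions, of which 26 belonged to single-exon transcripts, a middle exon in 262 and the last of several in 194. The region lay downstream of the nearest start in 383 cases and upstream of it in 115, and the median distance was 7381.5 bp, with 12 regions beyond 100 kb. A gene name could be given to the exon's transcript in 491 regions, which lay in 466 genes, and 23 genes held 2 or more. The gene that owned the exon was the gene of the nearest start in 317 regions and a different gene in 174, and the nearest start belonged to a microRNA in 21. Regions are named below by the gene that owns the exon.

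Some of these genes have near-identical copies. The TBC1D3 family, hominoid-specific copies related to Rab GTPase-activating proteins, accounted for 6 regions on chromosome 17, all on exon 14 of 14, and 4 of them carried the name TBC1D3F. For shTIP60-B their M ran from -0.68 to 0.08, and for shTIP60-C from -0.18 to 0.48. The 2 regions of EIF3C, a subunit gene of translation initiation factor eIF3 with a duplicate on chromosome 16, had M of -1.06 and -0.63 with shTIP60-B. Reads at such copies may have been split or shared by the alignment, so these values are uncertain, and none passed the rule used below.

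The distance limit of 1000 bp had close neighbours on both sides. The exon region of RGMB at 1001 bp had 77 control, 58 shTIP60-B and 171 shTIP60-C reads, while that of ARSB at 974 bp, just outside the definition, had 75, 87 and 152. Among non-coding exons, ATP2B1-AS1 at 1001 bp had 48, 18 and 42 reads, and PARP12 at 994 bp, left out, had 264, 199 and 528. Among 5' UTRs, SDHAF3 at 1052 bp had 88, 60 and 149 reads, and TLE1 at 943 bp, left out, had 18, 30 and 66.

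Of the strongest regions of each class, CCAT1, with 569 control reads and a width of 6162 bp, passed the rule given below with both hairpins, at M of 1.89 and 1.04, and is described with the regions that rose. The others named in this paragraph and the next stayed within a fold of 2. The non-coding region LOC101927780 on chromosome 14 (62027594 to 62033957) was both the strongest and the widest, at 6364 bp, with 1543 control, 1215 shTIP60-B and 2409 shTIP60-C reads. Its M was 0.22 (0.11 to 0.33) for shTIP60-B and -0.22 (-0.31 to -0.12) for shTIP60-C in the authors' deposited tables, small and of opposite sign. ZNF582, a zinc finger gene of the KRAB class (chromosome 19, 56893348 to 56897258, exon 5 of 5), had 775, 589 and 1286 reads, with M of 0.08 and -0.15. MGLL, the monoacylglycerol lipase gene, and BAZ1A, a chromatin remodelling subunit gene, had M between -0.18 and 0.17 with both hairpins. PROB1 had M of 0.05 and -0.02. POU2F3, the tuft cell transcription factor gene, was lower with shTIP60-B, with 414, 196 and 887 reads and M of -0.75 (-1.004 to -0.50), short of a fold of 2, and had M of 0.21 with shTIP60-C.

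The pseudogene AFG3L1P had 542, 315 and 1131 reads with M of -0.39 and 0.18, and TMEM134 had 499, 460 and 777 with M of 0.32 and -0.25. The widest regions included LINC01588, at 4748 bp, with 418, 389 and 823 reads and M of 0.31 and 0.09. Among the 5' UTR regions, the strongest was HK2, the gene of the glycolytic enzyme hexokinase 2 (chromosome 2, 75060200 to 75063161), with 429, 435 and 704 reads. Its M of 0.45 (0.26 to 0.65) for shTIP60-B and -0.18 (-0.36 to -0.004) for shTIP60-C did not reach the fold. ARPC5L, an actin nucleation gene, had 335, 329 and 733 reads and M of 0.37 and 0.23. ELK4, an ETS factor gene that partners serum response factor, had 253, 145 and 437 reads with M of -0.51 and -0.12, and PRR7, with 253, 224 and 454 reads, had M of 0.17 and -0.07. The 5' UTR region of PABPN1, a poly(A)-binding protein gene, had 327, 253 and 525 reads and M of -0.01 and -0.22.

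The first comparison, shTIP60-B against shControl, asked which exonic regions differed in H4ac. A region passed when its fold was 2 or more and its deposited p 1e-05 or less. By this rule acetylation fell at 18 exonic regions (3.61%) and rose at 3 (0.602%). Over all control peaks 3.98% fell and 0.949% rose, so the exonic shares were near the background. The median M was -0.32 (quartiles -0.87 and 0.17) against -0.27 over all control peaks. Below 0 were 328 of 498 regions (65.9%), beside 66.0% of all control peaks. Intron regions off promoters had a median of -0.33, regions at transcription ends and 3' UTRs -0.35, intergenic regions -0.31 and regions within 1000 bp of a start -0.21. Within the exonic regions the medians were -0.34 for exons, -0.23 for non-coding exons and -0.33 for 5' UTRs, and 10, 6 and 2 regions fell.

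**Figure D1:**
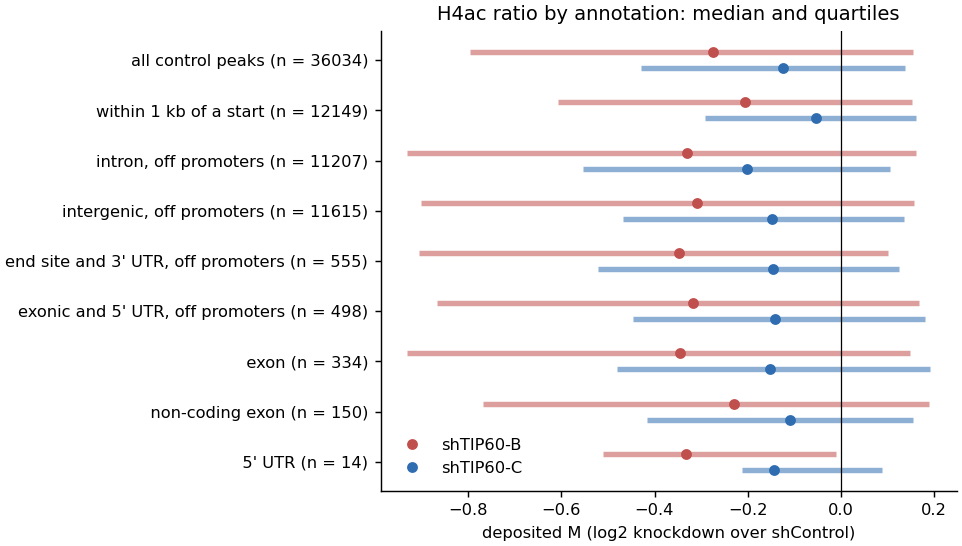
Median (point) and quartiles (bar) of the deposited M, the log2 ratio of knockdown over shControl, for control peaks grouped by annotation, with shTIP60-B in red and shTIP60-C in blue. The exonic and 5' UTR regions, with medians of -0.32 and -0.14, lie beside the intron and intergenic regions, and the regions within 1 kb of a start lie nearest to 0.

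Membership was set by a peak call in shControl, so the control reads entered the choice of regions. Of the regions, 305 overlapped the shTIP60-B peak list as common regions and had a median M of 0.01, while the 193 that did not had -0.94 and a median of 24 control reads. All control peaks split the same way had medians of -0.04 and -0.98. Exonic regions more than 1000 bp from a start that came from the shTIP60-B peak list itself had a median M of 0.13 where common with the control (317 regions) and 1.21 where unique to shTIP60-B (54 regions). Among the regions not shared, the sign of the median thus went with the library in which the peaks were called. The shared regions had medians of 0.01 and 0.13 in the 2 lists.

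Signal strength went with the ratio as well. With the regions split at the quartiles of control reads, from the weakest group to the strongest, the median M with shTIP60-B was -0.50, -0.35, -0.25 and -0.12, and over all control peaks in the same read ranges it was -0.60, -0.40, -0.26 and -0.14. The authors' rescaling had a slope of 1.09 on log2(shTIP60-B reads + 1). At an equal read ratio, such a slope gives a lower M where reads are few. The parts of this slope and of read depth in the ratios were not tested beyond this.

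The lowest ratios with shTIP60-B rested on few knockdown reads. LINC01247, a long intergenic non-coding RNA gene (chromosome 2, 6512393 to 6512925, exon 1 of 3), had 27 control, 0 shTIP60-B and 58 shTIP60-C reads. Against a floor of 3 counts in the shTIP60-B library its level was at least 7.39-fold lower than in shControl, with the 27 control reads taken as exact. This fold was scaled by the reads summed over all deposited regions and not by the authors' rescaling. With shTIP60-C its M was 0.11 (-0.54 to 0.86). Only the shTIP60-B library was low there, and no other control peak lay within 100 kb.

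MPP7, a cell polarity scaffold gene (chromosome 10, 28342648 to 28343367, exon 19 of 19), had 29, 2 and 15 reads. Its M in the authors' deposited tables was -3.54 (-7.19 to -2.10) for shTIP60-B and -1.91 (-2.96 to -1.004) for shTIP60-C, where it did not pass. UBE2O, a ubiquitin-conjugating enzyme gene (chromosome 17, 74394287 to 74394975, exon 11 of 18), had 36, 4 and 40 reads, with M of -3.04 (-5.27 to -1.84) and -0.83. At both genes the shTIP60-C value lay on the same side of 0 and was nearer to it.

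CDH5, the VE-cadherin gene of endothelial cells (chromosome 16, 66412894 to 66413717, exon 2 of 12), had 32, 4 and 63 reads. Its M was -2.88 (-5.11 to -1.66) for shTIP60-B and -0.01 (-0.62 to 0.68) for shTIP60-C. The promoter of CDH5 had no control peak. CD55, the complement decay-accelerating factor gene (chromosome 1, 207509707 to 207510505, exon 7 of 10), had 34, 5 and 53 reads and M of -2.67 (-4.61 to -1.53) and -0.34. ALPK3, a muscle alpha-kinase gene (chromosome 15, 85383563 to 85384313, exon 5 of 14), had 56, 10 and 98 reads and M of -2.42 (-3.67 to -1.55) and -0.15. A second ALPK3 region, on exon 6, did not pass. At CDH5, CD55 and ALPK3 the shTIP60-C interval included 0.

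IRX5, an Iroquois homeobox gene (chromosome 16, 54966913 to 54967874, exon 3 of 3), had 46, 9 and 69 reads and M of -2.30 (-3.63 to -1.37) and -0.38. The 5 other control peaks within 100 kb of it had a median M of -2.38 with shTIP60-B, so the fall extended over the IRX5 neighbourhood. PRUNE2, a 5' UTR region of a gene expressed in neurons (chromosome 9, 79302183 to 79303031), had 40, 5 and 39 reads and M of -2.90 (-4.83 to -1.79) and -1.01. EGLN1, the gene of the oxygen-sensing prolyl hydroxylase PHD2 and the other 5' UTR region that fell (chromosome 1, 231556908 to 231558805), had 237, 98 and 305 reads and M of -1.03 (-1.39 to -0.69) and -0.56.

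The fall with the most control reads behind a large ratio was at RPL26L1-AS1, an antisense RNA gene beside the ribosomal protein gene RPL26L1 (chromosome 5, 172381353 to 172383793, exon 4 of 4). It had 269 control, 56 shTIP60-B and 520 shTIP60-C reads. The authors' deposited table gave M of -2.08 (-2.54 to -1.68) with a p of 1.7e-30 for shTIP60-B, and M of 0.05 (-0.17 to 0.27) for shTIP60-C. The RPL26L1 promoter peak next to it had 238, 157 and 448 reads and M of -0.30 and 0.003, so the fall did not extend to it. Within 100 kb on the other side, an intron region of ERGIC1, a gene of the secretory pathway, went the opposite way, with 102, 547 and 135 reads and M of 2.87 with shTIP60-B and -0.54 with shTIP60-C. A region in another ERGIC1 stretch (172328560 to 172329893) fell with shTIP60-B, with M of -1.12.

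C5orf67 (chromosome 5, 55829923 to 55832094, exon 3 of 6) had the same pattern of libraries, with 228, 65 and 489 reads and M of -1.61 (-2.05 to -1.22) and 0.19 (-0.03 to 0.43). ZFHX3, a zinc finger homeobox gene (chromosome 16, 72821031 to 72821850, exon 10 of 10), had 85, 26 and 88 reads and M of -1.60 (-2.34 to -0.99) and -0.90 (-1.35 to -0.46). MYO1F, a class I myosin gene, had 122, 39 and 136 reads and M of -1.50 and -0.78. LCMT1-AS2 had 64, 16 and 65 reads and M of -1.93 and -0.94, and LOC401320 had 117, 44 and 150 reads and M of -1.26 and -0.58.

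The last members that fell lay close to the fold of 2. SDCBP2-AS1 had 137, 56 and 224 reads with M of -1.11 and -0.22. LINC00511 had 152, 63 and 152 reads with M of -1.08 and -0.94, nearly the same with both hairpins. ARHGEF2, a microtubule-associated activator of RhoA, had 246, 103 and 356 reads with M of -1.004 and -0.38. Of the 18 regions that fell, 8 held under 60 control reads, where the median over all exonic regions was 36.5. In protein-coding genes 11 of 372 regions fell (2.96%), beside 3.61% of all 498 exonic regions. On chromosome 16, which held 30 exonic regions, 4 fell. The share that fell among all 1495 control peaks of this chromosome was not computed, and their median M was -0.64. None of the 18 passed with shTIP60-C.

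**Figure D2:**
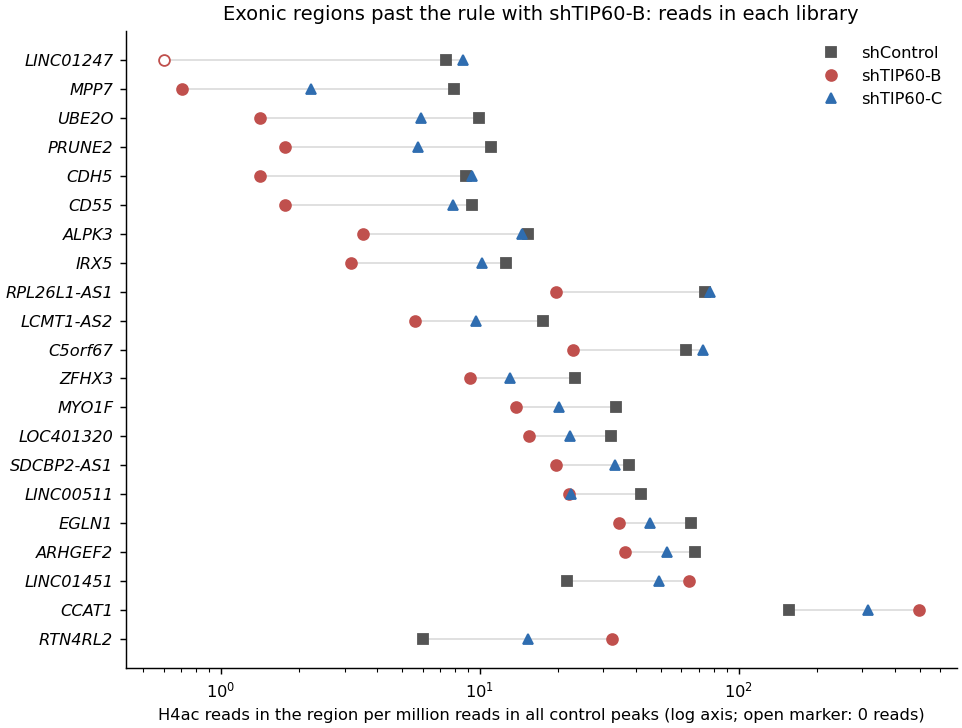
H4ac reads, scaled to the library's reads in all control peaks (log axis), at each of the 21 exonic regions that passed with shTIP60-B, for shControl (square), shTIP60-B (circle) and shTIP60-C (triangle), with LINC01247 drawn open because it had 0 shTIP60-B reads. In the 18 regions that fell the circle lies below the square, while the triangle lies beside the square at CDH5, ALPK3 and RPL26L1-AS1 and close to the circle at LINC00511.

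Only 3 regions rose with shTIP60-B. CCAT1, a long non-coding RNA gene upstream of MYC that is expressed in carcinomas (chromosome 8, 128217273 to 128223434, exon 2 of 2), had 569 control, 1410 shTIP60-B and 2132 shTIP60-C reads. Its M was 1.89 (1.75 to 2.04) for shTIP60-B and 1.04 (0.91 to 1.18) for shTIP60-C in the authors' deposited tables, and it passed with both. All 5 control peaks around CCAT1, the exon included, rose with shTIP60-B, with M from 1.00 to 1.89, and their M with shTIP60-C ran from 0.52 to 1.04. The rise thus covered the neighbourhood of the exon, which held the highest value.

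LINC01451 (chromosome 9, 139508413 to 139509751, exon 1 of 3) had 79, 183 and 332 reads and also passed with both hairpins, with M of 1.52 (1.14 to 1.93) and 1.14 (0.80 to 1.53). A second region of this gene had 20, 46 and 58 reads and M of 1.30 and 0.53, and did not pass. RTN4RL2, a Nogo receptor family gene (chromosome 11, 57243998 to 57244545, exon 3 of 3), had 22, 92 and 103 reads. Its M was 2.24 (1.61 to 3.03) for shTIP60-B and 1.23 (0.60 to 2.01) for shTIP60-C, where its deposited p of 0.000479 missed the threshold.

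**Figure D3:**
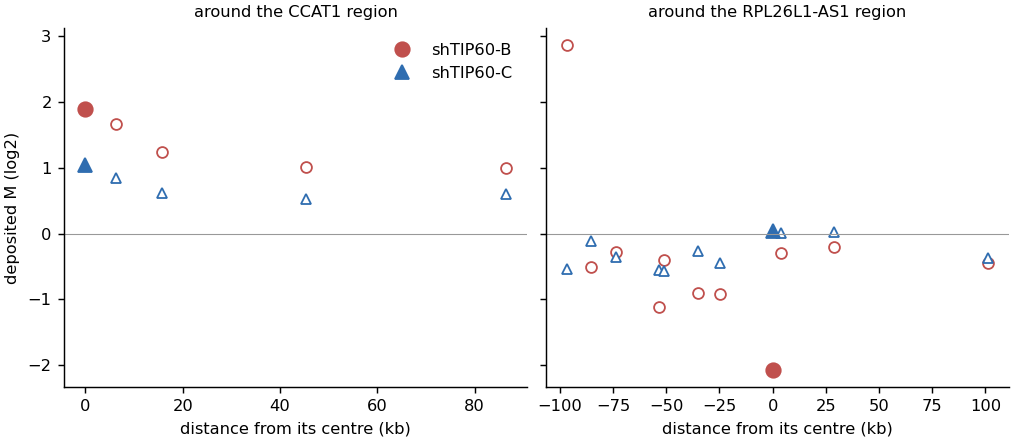
Deposited M of each control peak within 100 kb of the CCAT1 region (left) and the RPL26L1-AS1 region (right) by distance from the centre of the exonic region in kb, with shTIP60-B as circles, shTIP60-C as triangles and the exonic region filled. Around CCAT1 every value is above 0.5, and around RPL26L1-AS1 the exonic region is the lowest circle while the highest, at 2.87, is an ERGIC1 intron.

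The second comparison set shTIP60-C against shControl by the same rule. No exonic region fell and 2 rose (0.402%), CCAT1 and LINC01451. Over all control peaks 0.0666% fell and 0.0583% rose, which is 24 and 21 regions, so with 498 regions a count of 0 or 2 carries little weight. The median M was -0.14 (quartiles -0.45 and 0.18) against -0.12 over all control peaks. Below 0 were 303 of 498 regions (60.8%), beside 62.3% of all control peaks. By distance to the nearest start, from 1 to 2 kb out to over 50 kb, the exonic medians with shTIP60-C were 0.03, 0.00, -0.19, -0.18 and -0.26. Those of all control peaks were -0.12, -0.13, -0.16, -0.17 and -0.19. With shTIP60-B the exonic medians in the same bands were -0.27, -0.29, -0.32, -0.42 and -0.32. Those of all control peaks with shTIP60-B were -0.32, -0.30, -0.32, -0.31 and -0.36. Both hairpins were compared with the same control library, so the 2 sets of ratios share its error.

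The knockdown libraries were also set against each other, with no control reads, as the log2 ratio of shTIP60-B over shTIP60-C reads centred on the median over all control peaks. The median was 0.01 over the exonic regions. With a fold of at least 2 and an exact binomial p of at most 1e-05, 9 regions (1.81%) were lower in shTIP60-B and 6 (1.205%) were higher, where the background over all control peaks was 2.18% and 1.47%. The lowest was LINC01247. It was at least 8.20-fold lower against the floor of 3 counts, with its 58 shTIP60-C reads taken as exact. GDAP1L1, a gene related to a mitochondrial fission factor (chromosome 20, 42907948 to 42908637), followed with 4 and 90 reads and a centred ratio of -2.95 (-5.16 to -1.85). CDH5, RPL26L1-AS1 and ALPK3 had centred ratios of -2.44, -1.95 and -1.93. GAS2L1, SLC9A2, C5orf67 and WDR81 completed the 9, between -1.78 and -1.21.

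In the other direction, CELA1, an elastase family gene (chromosome 12, 51734740 to 51735331, exon 5 of 8), had 40 shTIP60-B and 30 shTIP60-C reads and a centred ratio of 1.64 (0.93 to 2.39). SORL1, a sorting receptor gene (chromosome 11, 121465942 to 121466848, exon 32 of 48), had 54 and 41 reads and 1.63 (1.02 to 2.26). ADGRA2, an adhesion receptor gene, had 52 and 44 reads and 1.47, and LINC00865 had 92 and 94 reads and 1.21. SLC8A3, a sodium-calcium exchanger gene, had 139 and 144 reads and 1.19 (0.84 to 1.53), and RTN4RL2 had 1.08. The raw shTIP60-B reads were more than the shTIP60-C reads at CELA1, SORL1 and ADGRA2 and somewhat fewer at LINC00865, SLC8A3 and RTN4RL2. The depths of the libraries differ. The median region had 0.424 shTIP60-B reads per shTIP60-C read.

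**Figure D4:**
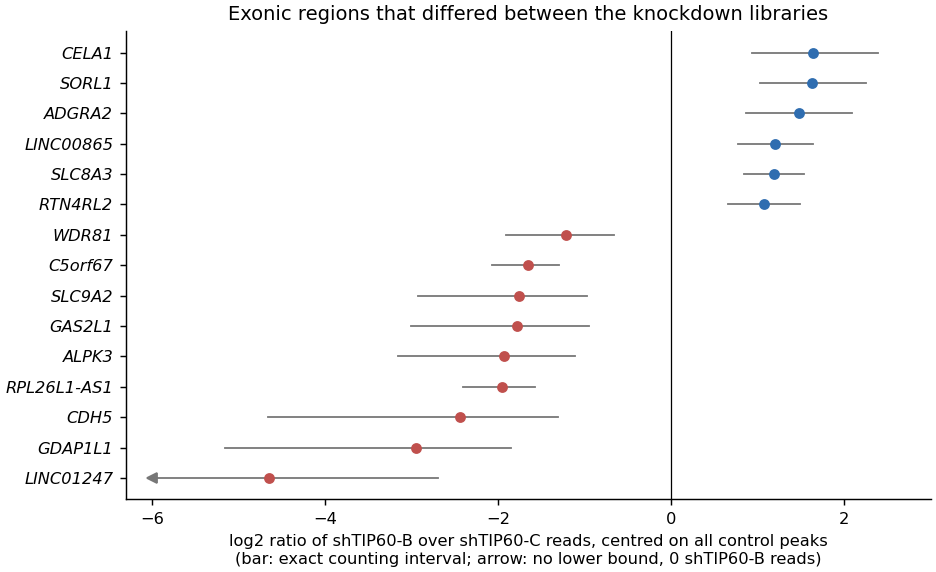
Centred log2 ratio of shTIP60-B over shTIP60-C reads at the 15 exonic regions that differed by the fold and the exact binomial p, with exact counting intervals as bars and an arrow where 0 shTIP60-B reads leave no lower bound. The 6 regions higher in shTIP60-B lie between 1.08 and 1.64, and the 9 lower ones reach from -1.21 to -2.95 apart from LINC01247.

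Chromosomes differed in their median ratio with shTIP60-B, for all control peaks and for the exonic regions. On chromosome 16 the median M was -0.64 over all control peaks and -0.70 over the 30 exonic regions, and on chromosome 20 it was -0.84 and -0.68 over 17. With shTIP60-C the medians on chromosome 16 were -0.13 and -0.25, and on chromosome 20 -0.08 and -0.02. Outside these 2 chromosomes, 13 of 451 exonic regions fell and 3 rose with shTIP60-B, beside 1158 and 341 of 33461 control peaks. The regions of CDH5, IRX5, LCMT1-AS2, ZFHX3, SDCBP2-AS1 and GDAP1L1 lie on these chromosomes. With the chromosome's median over all control peaks taken off, M with shTIP60-B was -2.23 at CDH5, -1.65 at IRX5, -1.28 at LCMT1-AS2 and -1.85 at GDAP1L1, and ZFHX3 at -0.96 and SDCBP2-AS1 at -0.27 no longer reached a fold of 2. Exonic regions made up 2.55% of the control peaks on chromosome 19 and 2.28% on chromosome 17, against 0.589% on chromosome 4.

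**Figure D5:**
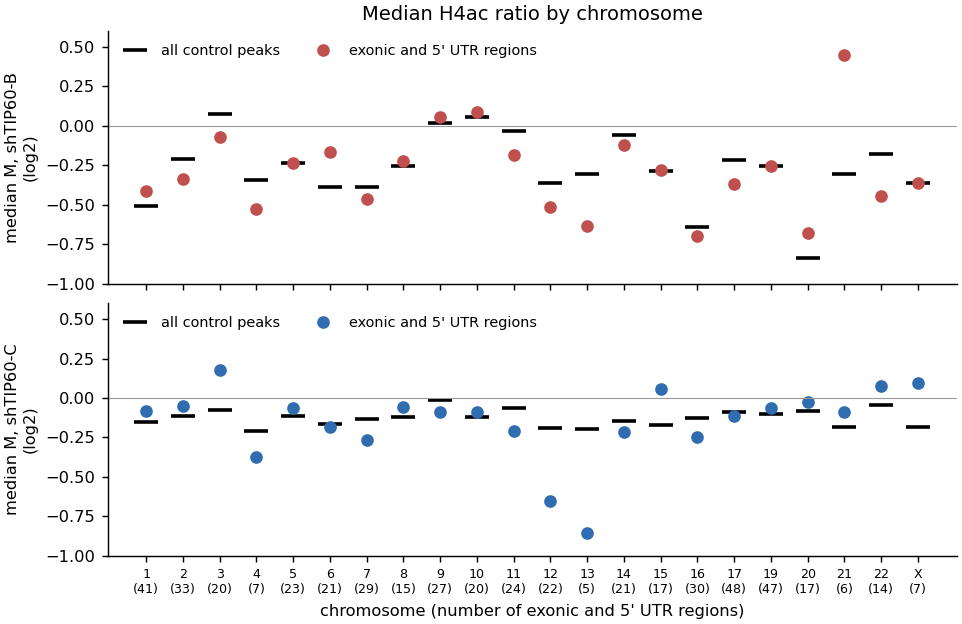
Median deposited M by chromosome with shTIP60-B (top) and shTIP60-C (bottom) for all control peaks (bar) and for the exonic and 5' UTR regions (point), for chromosomes with at least 5 such regions, whose number stands in parentheses. Chromosomes 16 and 20 hold the lowest bars with shTIP60-B, at -0.64 and -0.84, against -0.13 and -0.08 with shTIP60-C, where the lowest points are chromosome 13, at -0.86 over 5 regions, and chromosome 12, at -0.66 over 22.

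Gene lists drawn up for this cell type were read over the exonic regions. Homeobox and developmental transcription factor genes held 7 regions, of which IRX5 and ZFHX3 fell with shTIP60-B and none rose, beside 3.98% and 0.949% over all control peaks. The median M was -0.99 and -0.37 for the 2 hairpins, where all control peaks had -0.27 and -0.12. Both regions that fell lie on chromosome 16, and each call was lost under 1 alternative: ZFHX3 with its chromosome's median taken off, and IRX5 with an exact binomial p. SOX4, a progenitor factor gene, had 97, 75 and 222 reads and M of -0.16 and 0.26. FOXA2, a factor of lung and liver epithelium, had 46, 26 and 137 reads and M of -0.73 and 0.61, and the lung lineage factor NKX2-1 had 16, 18 and 36 reads and M of 0.18 and 0.15. The remaining members, PAX9 and FOXC1, had M of -1.06 and -0.99 with shTIP60-B on 19 and 16 control reads and did not pass.

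Large cytoskeletal genes held 5 regions, with median M of -0.82 and -0.24, and none passed. Among them VCL, the vinculin gene, had 19, 2 and 11 reads and M of -2.96 (-6.61 to -1.42), and UTRN, the utrophin gene, had 39, 21 and 65 reads and M of -0.82. PLEC and SPTBN1, which encode plectin and a spectrin, had M of -0.41 and -0.97. Protocadherin genes, which encode cell adhesion proteins, held 3 regions with medians of -0.23 and -0.21: PCDHB16 had 40, 31 and 68 reads, PCDHA11 had 23, 22 and 41, and PCDHB14 had 19, 16 and 12. Zinc finger genes named ZNF held 13 with medians of -0.26 and -0.05, and no region of either list passed. ZNF542P had 264, 129 and 327 reads with M of -0.75 and -0.61, and ZNF341 had 230, 145 and 426 with M of -0.37 and -0.02.

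The list of long non-coding RNA genes covered only part of this class. It held 44 regions in 39 genes, with median M of -0.16 and -0.01. Among these 44, LINC01247 and LINC00511 fell and CCAT1 and LINC01451 rose with shTIP60-B. With shTIP60-C, CCAT1 and LINC01451 rose and none fell. By gene annotation, 95 exonic regions lay in long non-coding RNA genes. Of these 95, 6 fell (6.32%) and 2 rose (2.11%) with shTIP60-B, beside 3.98% and 0.949% over all control peaks. MALAT1, an abundant nuclear RNA whose region reached its start site, had 318, 208 and 471 reads and M of -0.28 (-0.54 to -0.02) and -0.34 (-0.55 to -0.13). LINC01588 is given above, and LINC01004 had 363, 227 and 564 reads and M of -0.33 and -0.27. NEAT1, the scaffold RNA of paraspeckles, had 20, 7 and 17 reads and M of -1.48 and -1.22 on that small depth.

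Lists with few regions gave single values. IFITM3, a membrane protein that restricts virus entry and the gene whose promoter stretch is printed above, had 208, 106 and 385 reads with M of -0.72 (-1.08 to -0.38) and -0.03 and did not pass, and OASL had M of -0.32 and -0.45. Immediate early genes held 3 regions with medians of -0.43 and 0.35: the AP-1 gene FOSL1 had 57, 62 and 163 reads and M of 0.30 and 0.56, ZFP36L2 had -0.43 and 0.35, and FOS had 17, 7 and 6 reads and M of -1.26 and -2.38. Among keratin, junction and lung epithelial genes, which held 3 regions with medians of 0.18 and 0.15, the mucin gene MUC1 had 46, 49 and 130 reads and M of 0.24 and 0.54, and CDH1, the E-cadherin gene, had 33, 9 and 37 reads and M of -1.83 (-3.19 to -0.84) and -0.81. RNA-binding genes held 4 regions with medians of -0.50 and -0.57. HNRNPA1, a splicing regulator gene, had 22, 4 and 19 reads and M of -2.36 and -1.19, and SRSF11 had 86, 75 and 158 reads and M of 0.01 and -0.07. The chromatin remodeller gene CHD2 had 22, 36 and 68 reads and M of 0.79 and 0.63, and the matrix metalloprotease gene MMP9 had M of -0.99 and -0.27. No region of these lists passed, and genes of the TIP60 complex and of the EGFR and RAS pathway held 0 exonic regions.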

How the data were processed

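Chromatin from H1975 cells was crosslinked for 10 min in 1% formaldehyde, sheared to 100 to 1000 bp and sequenced as paired 75 bp reads, per the labels' protocols. Per the submitters' processing notes, Bowtie2, MACS 1.4.2 and hg19 were used. The authors' deposited tables hold read counts of both libraries as whole numbers, not normalised. They also hold M and A, log2 values that the authors rescaled, and the −log10 of a p-value, deposited per region and not adjusted over regions. The annotation is HOMER's, per the file headers.

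The members and gene lists were chosen with earlier results of these data known. Both tables were joined on the control peaks, and control counts were equal in both. From the counts, M and A, the authors' rescaling was recovered as a linear function of log2(knockdown reads + 1), with slopes of 1.09 for shTIP60-B and 1.02 for shTIP60-C, and it shifted the exact counting intervals. The ratio of the knockdown libraries used a pseudocount of 1. Exons were named by the annotated transcript, from deposited names for 344 regions and RefSeq for 147, with 7 unmatched. Named genes are up to 10 regions per direction and hairpin past the rule, the 5 strongest of each class, the 5 widest, up to 3 per list, those at the distance limit, and up to 5 per direction in the direct ratio. Regions beyond this rule (the 8 nearest to the fold among those that fell, the last 4 and 1 of the direct ratio, near-identical copies, neighbours, and list members past the third) were added after their values were seen. The rule in its binomial form, not the deposited p, was checked on simulated counts. Python 3.11.15, pandas 2.3.3, numpy 2.4.6, scipy 1.17.1 and matplotlib 3.10.9 were used. Other folds, p-values, scalings, distance limits and subsets were tried.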

Additional observations from a re-analysis of the deposited data

Results flagged for a closer look

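At LINC01247, RPL26L1-AS1 and C5orf67, which fell with shTIP60-B, M with shTIP60-C had the opposite sign, at 0.112, 0.0453 and 0.193. With 1 library per hairpin the difference between the conditions was not tested, and each of the 3 shTIP60-C counting intervals includes 0.

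Exonic regions more than 1000 bp from a start that were called as peaks in shTIP60-B alone lie outside the comparisons above. They were peaks of the knockdown library only, so a ratio above 0 follows from how they were chosen. Of these 54 regions, 5 rose by the same rule (9.26%), beside 11.9% of all 3182 regions unique to the shTIP60-B list. GRM5, a glutamate receptor gene, had 96 shTIP60-B and 12 control reads with M of 3.13, and the synaptic adhesion gene LRFN4 had 37 and 6 reads with M of 2.55. The pseudogene CNTNAP3P2 had 43 and 8 reads with M of 2.42, and RNF126P1 had 56 and 21 with M of 1.54. A NEAT1 stretch had 44 and 11 reads with M of 2.04, while the NEAT1 region called in the control had M of -1.48. Of the 61 exonic regions called in shTIP60-C alone, 0 rose, beside 74 of 3390 (2.18%).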

How the results depend on the processing

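Of 83 alternatives that could move a count or median, 66 left a count within 1.5 times, or a median within its 95% order-statistic interval over regions. Leaving out CpG islands removed 0 regions and tested nothing. With shTIP60-B, 18 regions fell and 3 rose; 7 rose at a fold of 1.5, 44 fell and 8 rose at a p of 0.001, 5 rose with chromosome-centred ratios, and 10 fell and 1 rose among exons alone. Its median of -0.32 became -0.12 with ratios scaled by table totals and -0.000294 when centred by chromosome. With shTIP60-C, 0 fell and 2 rose; 1 fell at a fold of 1.5, 0 rose at a fold of 3, 5 fell at a p of 0.001, and 1 fell with an exact binomial p. There, 1 rose with scaling by table totals, 1 beyond 3000 bp and 0 among exons alone, and the median became -0.0137 when centred by chromosome. The median ratio of the knockdown libraries became -0.19 as the difference of the deposited M, an alternative chosen after seeing the data, as was leaving out chromosomes 16 and 20. The causes were not tested. Shares over all control peaks were not computed at the changed folds, p-values or scalings. The counts under them therefore have no background here and cannot be set against the shares of the main rule.

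Of 69 alternatives for single regions that passed, 14 missed the threshold, and of the 46 that rescaled M 0 changed its sign. ARHGEF2, EGLN1, LINC00511 and SDCBP2-AS1 missed a fold of 2 with shTIP60-B when scaled by table totals, as did CCAT1 with shTIP60-C at 0.97. The same 4 with ZFHX3 and LOC401320 missed it when centred by chromosome, and CD55, IRX5 and CDH5 missed the exact binomial p. No paired analysis was possible because each group holds 1 library. Below the lower quartile of control reads, 0 of 125 regions fell and 1 rose with shTIP60-B, beside 11 and 15 of 6067 control peaks in that read range. At so few reads the rule left little room for a fall. The lowest M among these 125 regions, -4.69 at 0 shTIP60-B reads, did not pass.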
